A study of Mus musculus with 55 samples.

Results

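Wnt ligands and the Wnt enhancer R-spondin 3 were followed through mouse epiblast stem cells (EpiSCs) and embryonic tailbuds. The 9 genes Wnt3, Wnt3a, Wnt4, Wnt5a, Wnt5b, Wnt6, Wnt8a, Wnt11 and Rspo3 were taken by gene symbol, without regard to their values. All 9 were among the 15807 genes of the EpiSC table and 8 among the 14602 genes of the tailbud table, where Wnt11 was not listed. After the filter on low counts, 7 of the 9 were tested among 9703 EpiSC genes and 5 of the 8 among 6003 tailbud genes.

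Wnt proteins are lipid-modified secreted signals that bind Frizzled receptors. With an Lrp co-receptor they stabilise β-catenin, which acts with TCF/LEF factors on target genes, while other Wnts act on cell movement and polarity without β-catenin. R-spondins bind Lgr receptors and the ubiquitin ligases Znrf3 and Rnf43, which otherwise remove Frizzled from the cell surface, and so raise the response to Wnt. In the mouse, Wnt3 is needed to form the primitive streak, and Wnt3a and Wnt5a are needed to extend the body axis from the tailbud.

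RNA was measured by CEL-seq, in which each transcript is counted at its 3′ end, in 17 libraries. Null EpiSCs, derived from CdxKO pre-streak embryos of E6.0, and WT EpiSCs, derived from pre-streak embryos of the same stage, were each sampled at 24h and at 0h with 2 libraries per group. Both lines were kept in Fgf-basic, Activin A and 2 µM IWP2, an inhibitor of Wnt secretion. For the 24h samples IWP2 was withdrawn and 3 µM Chiron, a GSK3 inhibitor that activates the β-catenin branch inside the cell, was added with 120 ng/ml Fgf8. No group was kept untreated for 24h, so that adding Chiron and Fgf8, leaving out IWP2 and time in culture cannot be told apart. Tailbuds of E8.0 Triple, Cdx1-4 and WT embryos gave 3 libraries per group. The labels do not spell out the alleles behind Null, CdxKO, Triple and Cdx1-4, nor how many embryos were pooled or how many lines were used. They also do not say whether replicates were separate cultures or embryos, so p-values measure the spread between these libraries, which may be technical. A Wnt3 null is also mentioned in the culture protocol of the Null samples. Wnt3 tags were counted in all 4 Null libraries, and tags from the 3′ end do not show whether another part of the gene was deleted.

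EpiSC libraries held 1114055 to 2914870 counts and tailbud libraries 389601 to 854852, so that 3 counts in 1 library stood for 1.04 to 2.71 CPM, counts scaled to library size, in EpiSCs and 3.66 to 8.17 CPM in tailbuds. Cdx2, a gene of the Cdx family, held 21 and 19 counts in Null and 87 and 21 in WT EpiSCs at 24h, and 0 and 6 in Null and 6 and 5 in WT at 0h. Cdx4 held 0 counts in the Triple tailbuds, 0 to 1 in the Cdx1-4 tailbuds and 16 to 33 in the WT tailbuds. Of the 7 epiblast markers, Pou5f1 averaged 335.7 ± 27.5 CPM in Null and 200.5 ± 4.90 CPM in WT EpiSCs at 0h (SD, n = 2 each), while Nanog held at most 1 count in an EpiSC library. The 7 streak and tailbud markers summed to 1193 to 1278 CPM in Null EpiSCs at 24h against 31.6 to 43.6 CPM at 0h, and to 820 to 1087 CPM in WT EpiSCs at 24h against 92.1 to 105 CPM at 0h. In bulk RNA, fewer cells of a type and less RNA per cell cannot be told apart.

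RefSeq promoter sequence (GRCm38.p6) was searched for 6 of the genes, with 9 start sites. Wnt5a, Wnt8a and Rspo3 were left out of this search, so nothing is said of their promoters. The 250 bases before each start were searched on both strands for 3 kinds of letters. TCF/LEF letters were CTTTGAA, the variant CTTTGAT, the variant CTTTGTT and the variant CTTTGTA. Cdx letters were TTTATGG, the variant TTTATTG, the variant TTTATGA and the variant TTTATTA. The T-box core was TCACAC. The Cdx letters are shared with posterior Hox proteins and, on the other strand, partly overlap the polyadenylation signal AATAAA. Of 32851 mouse promoters of the same length, 14.8% held a TCF/LEF match, 13.1% a Cdx match and 12.3% a T-box match. Among the 9 starts, 1 start of Wnt5b held 1 TCF/LEF match, 65 to 71 bases before the start, and 1 Cdx match, 216 to 222 bases before it, and 1 start of Wnt11 held 1 TCF/LEF match, 45 to 51 bases before it. No other start held a match to any of these letters, which describes these windows and not binding. The Wnt5b window is shown because it is the one with both kinds of match in a gene that rose in EpiSCs and was lower in Triple tailbuds, and the windows of Wnt6 and Wnt4 because these genes moved in opposite directions in EpiSCs. All are written 5′ to 3′ on the gene's strand and end at the base before the start, with matched letters in capitals.
Wnt5b, chr6:119449387-119449636, minus strand: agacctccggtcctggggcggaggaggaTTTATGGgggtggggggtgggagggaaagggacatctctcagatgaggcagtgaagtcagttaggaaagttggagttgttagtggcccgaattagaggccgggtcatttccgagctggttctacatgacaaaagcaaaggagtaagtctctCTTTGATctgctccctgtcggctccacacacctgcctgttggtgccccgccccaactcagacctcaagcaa
Wnt6, chr1:74771642-74771891, plus strand: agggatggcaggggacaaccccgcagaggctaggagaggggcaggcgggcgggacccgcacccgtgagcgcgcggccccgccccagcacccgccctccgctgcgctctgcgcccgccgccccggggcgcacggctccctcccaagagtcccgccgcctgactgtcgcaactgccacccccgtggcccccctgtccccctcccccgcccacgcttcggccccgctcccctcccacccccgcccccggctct
Wnt4, chr4:137277385-137277634, plus strand: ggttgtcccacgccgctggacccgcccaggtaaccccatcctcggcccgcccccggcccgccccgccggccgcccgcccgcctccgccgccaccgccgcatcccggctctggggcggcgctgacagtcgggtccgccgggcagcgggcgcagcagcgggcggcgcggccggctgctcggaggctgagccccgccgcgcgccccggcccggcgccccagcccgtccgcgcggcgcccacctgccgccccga
G and C made up 55.6% of the Wnt5b window, 79.6% of the Wnt6 window and 85.2% of the Wnt4 window, against a median of 52.4% over all promoters, and the windows held 7, 28 and 44 CG dinucleotides against a median of 6.

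At 24h most of the tested genes stood far above their 0h level in both lines. EdgeR called 6 of 7 tested members higher and 1 lower in Null EpiSCs at 24h against 0h, where 9.18% of all tested genes were called higher and 9.44% lower. In WT EpiSCs 5 of 7 were called higher and 1 lower, where 8.19% of all genes were called higher and 8.63% lower. The one that fell was Wnt4 in both lines, and the one not called in WT was Wnt3. The median log2 difference of the 7 was 4.15 in Null cells, against 0.01 over all genes. In WT cells it was 3.45, or 3.03 with Wnt3a set at the bound given below, against -0.01 over all genes. The filter asked for 6.10 CPM in 2 EpiSC libraries, and 6 of the 7 passed it through their 24h libraries, so these counts and medians carry a selection. Over the same contrasts the 7 epiblast markers summed to 284 to 322 CPM at 24h and 1392 to 1640 CPM at 0h in Null, and to 264 to 273 CPM at 24h and 949 to 997 CPM at 0h in WT. The part of a change in cell state or make-up in the ligand levels was not tested.

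Wnt6, a ligand of surface ectoderm that acts in the chick on somite epithelium, lies at chr1:74754342-74785322 (GRCm38.p6). It held 142 and 103 counts in Null EpiSCs at 24h, against 2 and 5 at 0h. In WT EpiSCs it held 158 and 76 counts at 24h, against 2 and 1 at 0h. Every 24h library thus lay far above every 0h library in both lines. Its level was 69.6 ± 1.07 CPM in Null and 51.7 ± 4.61 CPM in WT at 24h, and 2.89 ± 2.30 CPM in Null and 0.820 ± 0.354 CPM in WT at 0h (SD, n = 2 each). The log2 difference between 24h and 0h was 4.70 ± 0.35 in Null (SE, edgeR adjusted p = 1.50e-12), 3.93 without Null 0h replicate 1 and 5.72 without Null 0h replicate 2. In WT the pooled counts of 234 at 24h and 3 at 0h gave a ratio of 63.7 with an exact 95% interval of 21.5 to 311, which covers counting error only (edgeR adjusted p = 4.04e-13).

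Wnt5a and Wnt5b, relatives that act mainly through cell polarity and movement, rose as well. Wnt5a (chr14:28504543-28527448) held 94 and 55 counts in Null EpiSCs at 24h, against 1 and 5 at 0h. In WT it held 105 and 49 counts at 24h, against 9 and 12 at 0h, so that some Wnt5a was counted in the WT libraries before treatment. Its log2 difference was 4.19 ± 0.43 in Null (SE, edgeR adjusted p = 2.10e-09) and 2.55 ± 0.32 in WT (2.33e-07). The Null value was 3.20 without Null 0h replicate 1 and 5.92 without Null 0h replicate 2. Wnt5b (chr6:119432531-119544824) held 59 and 38 counts in Null EpiSCs at 24h, against 4 and 0 at 0h. In WT EpiSCs it held 59 and 26 counts at 24h, against 1 and 4 at 0h. The time points did not overlap in either line. Its log2 difference was 4.15 ± 0.52 in Null (SE, edgeR adjusted p = 1.99e-07) and 3.71 ± 0.51 in WT (1.03e-06). The size rested on single 0h libraries: it was 3.42 in Null without Null 0h replicate 2, gave no fold without Null 0h replicate 1, which left 0 counts at 0h, and was 3.02 in WT without WT 0h replicate 1 and 4.98 without WT 0h replicate 2.

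Rspo3 (chr10:29453106-29535867), the secreted enhancer of Wnt signalling, followed the same course. It held 46 and 42 counts in Null EpiSCs at 24h, against 2 and 0 at 0h. In WT EpiSCs it held 80 and 55 counts at 24h, against 7 and 3 at 0h. The level at 24h was 25.4 ± 3.74 CPM in Null and 31.5 ± 5.12 CPM in WT, with every 24h library above every 0h library. In Null the pooled counts of 88 at 24h and 2 at 0h gave a ratio of 33.7 (exact 95% interval 9.05 to 282; edgeR adjusted p = 5.24e-08), and in WT the log2 difference was 3.45 ± 0.39 (SE, adjusted p = 1.78e-08). The size rested on single 0h libraries. In WT the log2 difference ranged from 3.02 to 4.12 over the alternatives, the upper end without WT 0h replicate 1. In Null it was 4.25 without Null 0h replicate 2 and gave no fold without Null 0h replicate 1, which left 0 counts at 0h.

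Wnt3a (chr11:59248036-59290751), the β-catenin ligand of the tailbud, stayed scarce in EpiSCs although its rise was called. It held 11 and 12 counts in Null at 24h, against 0 and 1 at 0h, a ratio of 17.6 with an exact interval of 2.86 to 725 (edgeR adjusted p = 0.00512). In WT it held 24 and 6 counts at 24h, against 0 and 0 at 0h, which makes it at least 8.16-fold higher when the 0h group is set at a floor of 3 counts (edgeR adjusted p = 2.64e-04). The Null call rested on few counts and was lost with DESeq2 (adjusted p = 0.110) and without Null 0h replicate 1 (0.136), over a range of 0.00115 to 0.136.

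Wnt3 (chr11:103774175-103818021), the streak-forming ligand, was uneven between the WT libraries. It held 33 and 36 counts in Null at 24h, against 7 and 5 at 0h, which differed by 2.14 ± 0.47 on the log2 scale (SE, edgeR adjusted p = 9.55e-04). In WT it held 36 and 6 counts at 24h, against 6 and 7 at 0h. WT 24h replicate 1 was therefore high and WT 24h replicate 2, at 3.83 CPM, lay within the 0h range of 3.21 to 3.99 CPM. The WT difference of 1.33 ± 0.50 did not pass (edgeR adjusted p = 0.0649), although it was called without the filter on low counts. It was 0.11 without WT 24h replicate 1 (adjusted p = 0.956) and 1.799 without WT 24h replicate 2 (0.00570), the ends of its range over the alternatives.

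Wnt4 (chr4:137277635-137299501), known for its part in kidney and gonad development, went the other way. It held 19 and 16 counts in Null at 24h, against 33 and 33 at 0h, and 18 and 5 counts in WT at 24h, against 32 and 18 at 0h. On the CPM scale both 24h libraries were below both 0h libraries in each line. The log2 difference was -1.31 ± 0.34 in Null (SE, edgeR adjusted p = 0.00589) and -1.41 ± 0.39 in WT (0.00998). In WT it ranged from -2.07, without WT 24h replicate 1, to -0.99 over the alternatives. The fall was lost with DESeq2 in Null (adjusted p = 0.108) and in WT (0.124), without Null 0h replicate 2 (0.0868) or Null 24h replicate 1 (0.0725), and without WT 0h replicate 1 (0.241) or WT 24h replicate 2 (0.0677). Over the alternatives its adjusted p ranged from 0.00240 to 0.108 in Null and from 0.00483 to 0.241 in WT.

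Wnt8a and Wnt11 were at or near 0. Wnt8a, a posterior ligand of the gastrula, held 0 and 2 counts in Null and 0 and 2 in WT at 24h, and 0 in all 4 libraries at 0h. Wnt11, which acts on cell movement during zebrafish gastrulation, held 0 to 2 counts in every EpiSC library. Both stayed below the filter, and changes in them were not detectable at this depth.

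**Figure D1:**
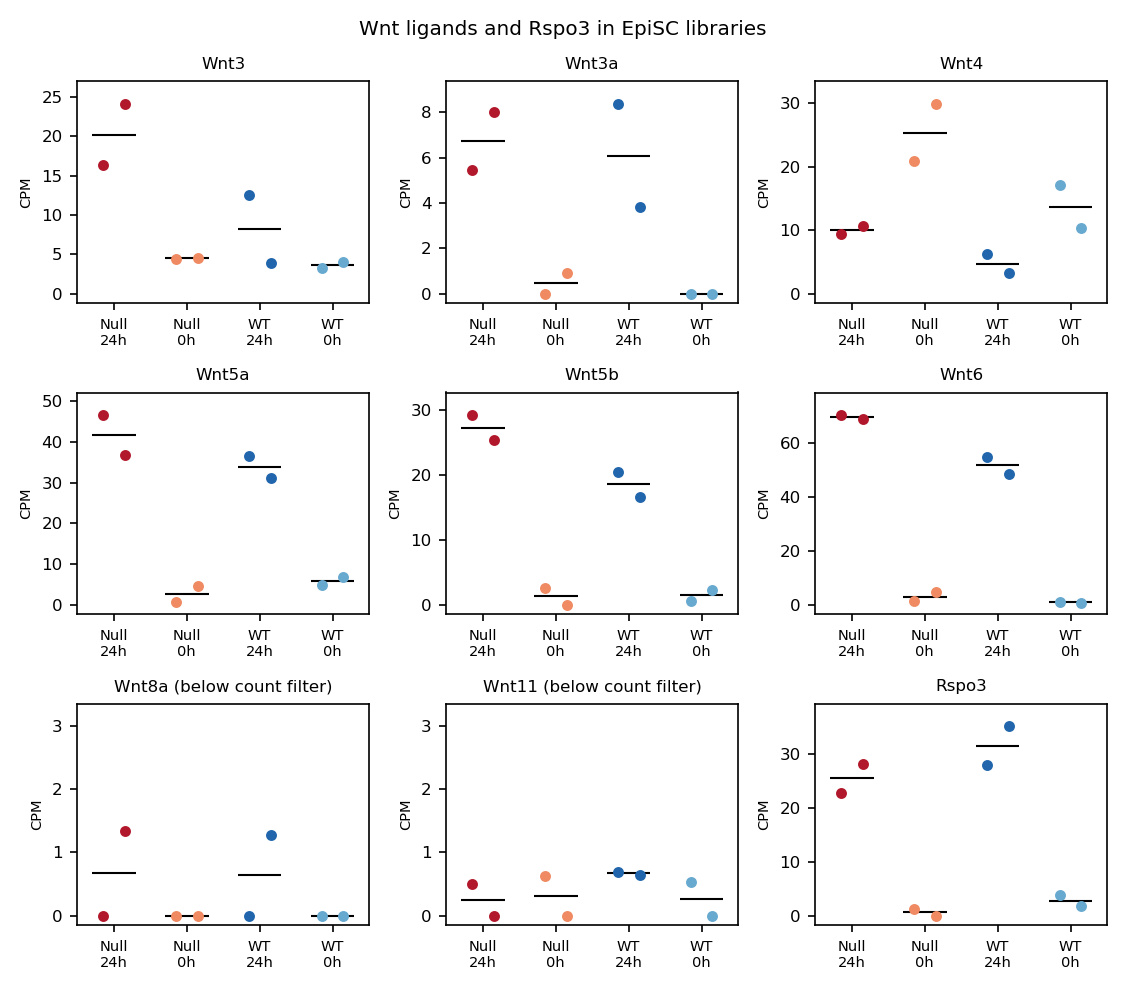
Level of each of the 9 genes in CPM (y axis, own scale per panel) in the 8 EpiSC libraries. Points are libraries and bars are means of 2; Wnt6, Wnt5a, Wnt5b and Rspo3 stand high at 24h in Null and WT, Wnt4 is low at 24h, and Wnt3 is split between the WT 24h libraries at 12.5 and 3.83 CPM.

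The 8 Wnt ligands together summed to 178 and 175 CPM in Null at 24h, against 30.3 and 44.3 CPM at 0h. In WT they summed to 139.9 and 109 CPM at 24h, against 27.3 and 23.9 CPM at 0h. The make-up of this pool differed between the times. At 0h Wnt4 alone gave 20.9 and 29.8 CPM of it in Null and 17.1 and 10.2 CPM in WT, and at 24h Wnt6 gave 70.4 and 68.9 CPM in Null and 55.0 and 48.5 CPM in WT.

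Null and WT EpiSCs were compared at each time. They were derived from different embryos, so genotype and other differences between the lines cannot be told apart. At 24h edgeR called 0 of 7 tested members, with 3 at an unadjusted p under 0.05 and 0 called by DESeq2, where 3.7% of all genes were called higher, 4.35% lower and 21.3% had an unadjusted p under 0.05. Both Null libraries were above both WT libraries for Wnt3, Wnt4, Wnt5a, Wnt5b and Wnt6, and they overlapped for Wnt3a and Rspo3. How many of all genes were separated in this way was not counted, so no difference between the lines is read from it. Wnt3 stood closest, at 20.2 ± 5.46 CPM in Null and 8.18 ± 6.15 CPM in WT (SD, n = 2 each), a difference of 1.11 ± 0.36 on the log2 scale (edgeR adjusted p = 0.0515). Both Null libraries, at 16.4 and 24.1 CPM, were above both WT libraries, at 12.5 and 3.83 CPM. Wnt3 was called without the filter (adjusted p = 0.0255), with only the compared groups (0.0453), without WT 24h replicate 1 (0.00646) and with the replicate number as a block (0.0323), and its adjusted p ranged up to 0.368, without Null 24h replicate 2. Wnt4 differed by 0.95 ± 0.42 (edgeR adjusted p = 0.176) and Wnt6 by 0.42 ± 0.18 (0.169). For Wnt3a the difference was 0.00 ± 0.31, with a 95% interval of -0.64 to 0.64, and for Rspo3 it was -0.29 ± 0.25, with an interval of -0.80 to 0.22. Surface ectoderm markers differed in the same contrast, with sums of 78.8 to 122 CPM in Null and 21.7 to 22.6 CPM in WT at 24h and 3 of 3 tested called higher, among them Krt8 at 2.68 ± 0.33 on the log2 scale (edgeR adjusted p = 1.92e-06). Formed somite markers summed to 263 to 267 CPM in Null and 101 to 152 CPM in WT at 24h, with 1 of 2 tested called higher. The 1 called was Aldh1a2, at 0.997 ± 0.229 on the log2 scale (edgeR adjusted p = 0.0164), and Meox1 was not called (0.243). Foxc2 and Tcf15 were not tested and stood at 0 in WT at 24h. From 0h to 24h, Aldh1a2 was called higher in both lines, while Meox1 was called lower in WT and not called in Null. Whether the surface ectoderm and formed somite markers stand for cells of those types was not tested, nor was the part of such cells in the ligand levels.

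At 0h edgeR also called 0 of 7, with 2 at an unadjusted p under 0.05 and 0 called by DESeq2, where 3.32% of all genes were called higher, 3.35% lower and 20.2% had an unadjusted p under 0.05. Both Null libraries were above both WT libraries for Wnt3, Wnt4 and Wnt6, and below both for Wnt5a and Rspo3. This separation, too, was not counted over all genes. Wnt4 was at 25.3 ± 6.34 CPM in Null and 13.7 ± 4.86 CPM in WT, a log2 difference of 0.85 ± 0.32 (edgeR adjusted p = 0.117). Wnt5a was at 2.57 ± 2.75 CPM in Null and 5.82 ± 1.42 CPM in WT, a difference of -1.34 ± 0.64 (0.225). Rspo3 held 2 pooled counts in Null and 10 in WT, a ratio of 0.270 with an exact interval of 0.0287 to 1.27. Wnt3 held 12 pooled counts in Null and 13 in WT, a ratio of 1.24 with an exact interval of 0.519 to 2.96. The remaining members, Wnt3a, Wnt5b and Wnt6, held at most 7 pooled counts in either line at 0h. Fibroblast markers summed to 117 to 128 CPM in Null and 228 to 277 CPM in WT at 0h. Of 5 tested, 1 was called lower in Null, Col3a1 at -1.45 ± 0.19 on the log2 scale (edgeR adjusted p = 3.55e-06), and 0 higher. Of 3 tested endoderm markers 2 were called lower and 1 higher, and of 5 tested epiblast markers 3 were called higher. The part of such cells in the ligand levels was not tested.

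The interaction, the 24h response of Null minus that of WT, was called for 0 of 7 members, with 1 at an unadjusted p under 0.05 and 0 called by DESeq2, where 0.34% of all genes were called higher, 0.227% lower and 10.2% had an unadjusted p under 0.05. Wnt5a had the lowest p, with a log2 difference of responses of 1.64 ± 0.67 (edgeR adjusted p = 0.371) and a 95% interval of 0.27 to 3.01 before adjustment. For Wnt4 the interval ran from -0.93 to 1.15 and for Wnt3 from -0.72 to 2.33. The steeper Wnt5a response in Null and the steeper Wnt6 response in WT are therefore not shown to differ between the lines. The comparisons between lines and between times share libraries.

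**Figure D2:**
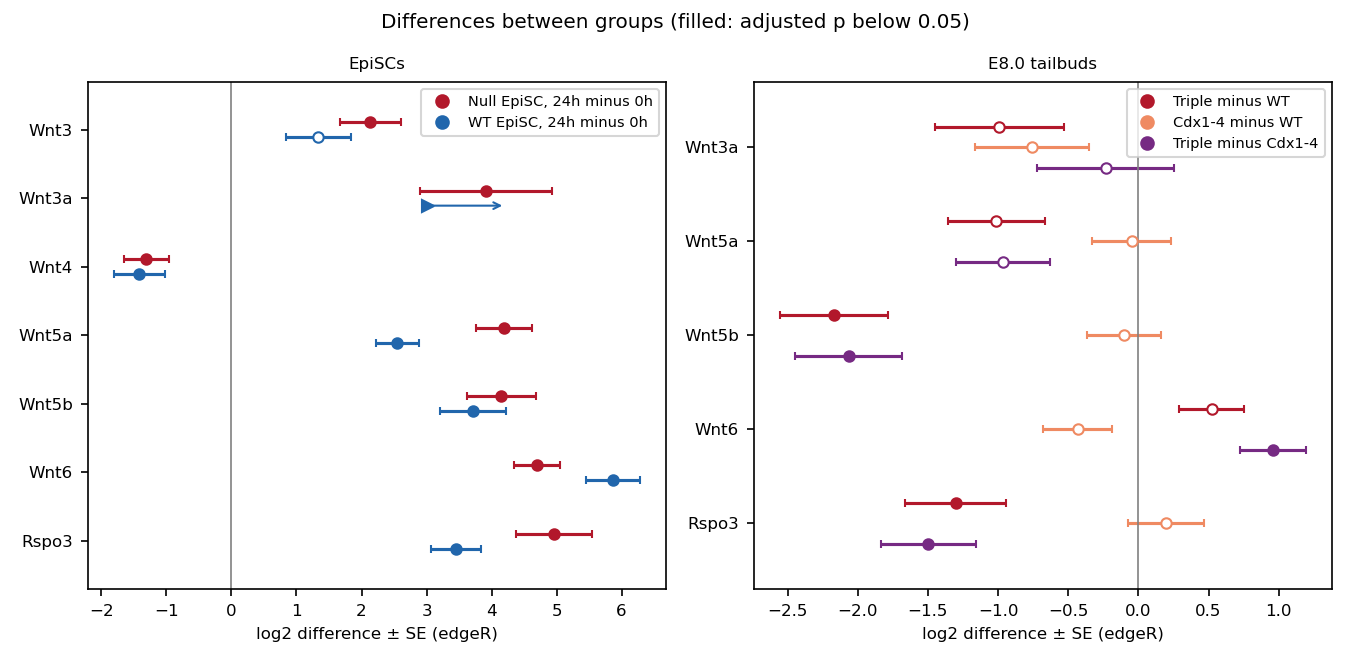
Log2 differences with their SE (x axis) for each tested gene, 24h minus 0h in Null and WT EpiSCs on the left and between E8.0 tailbud groups on the right. Filled points passed an edgeR adjusted p of 0.05, the arrow marks the lower bound for Wnt3a in WT EpiSCs, and Wnt4 is the one gene left of 0 among EpiSCs, whereas Wnt5b and Rspo3 are furthest left in Triple tailbuds.

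Some of these genes have another Wnt gene beside them. In RefSeq, Wnt6 and Wnt10a lie 6.7 kb apart on chromosome 1 with no protein-coding gene between, and Wnt3a and Wnt9a lie 16.1 kb apart on chromosome 11. Wnt10a held 14 and 10 counts in Null EpiSCs at 24h, against 1 and 0 at 0h, and 24 and 10 in WT at 24h, against 2 and 0 at 0h, so it stood higher at 24h with its neighbour Wnt6 in both lines. Wnt9a held 2 pooled counts at most in any EpiSC group. Wnt9b, whose RefSeq gene overlaps that of Wnt3, held 7 pooled counts in Null at 24h, against 1 at 0h, and 5 in WT at 24h, against 1 at 0h. Reads of these overlapping genes may have been assigned to either.

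Other parts of the pathway were listed by role. Of 14 other Wnt and R-spondin genes 2 were tested, and both rose at 24h in both lines. Wnt2 rose by 3.26 ± 0.60 in Null (SE, log2, edgeR adjusted p = 1.10e-04) and with 74 pooled counts at 24h against 2 at 0h in WT (8.70e-07), and Wnt10a passed too (0.00282 in Null, 8.15e-04 in WT). Of 12 genes that secrete or handle Wnt proteins, 7 were higher and 0 lower at 24h in Null, and 9 higher and 1 lower in WT. Wls, the carrier that brings Wnts to the cell surface, rose by 1.52 ± 0.19 in Null (adjusted p = 2.35e-07) and 1.47 ± 0.17 in WT (3.44e-08). Notum, an enzyme that removes the lipid of Wnts, rose by 2.98 ± 0.55 in Null (1.13e-04), and in WT it held 99 pooled counts at 24h against 2 at 0h (1.72e-08). The glypican gene Gpc3 rose by 2.45 ± 0.17 in Null (4.57e-13) and 1.38 ± 0.16 in WT (6.78e-08).

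Of the R-spondin receptors and ligases, 3 of 6 were tested, and 1 rose and 2 fell in both lines. Lgr4, a receptor of Rspo3, fell by 1.00 on the log2 scale in Null (edgeR adjusted p = 6.33e-04) and by 0.95 in WT (9.88e-04). Znrf3, the ligase that R-spondins hold back, rose by 1.62 ± 0.38 in Null (0.00175) and 1.51 ± 0.29 in WT (2.60e-04). Of 12 tested Wnt receptors 3 rose and 2 fell in each line, with Fzd10 at 4.16 ± 0.31 in Null (1.50e-12) and 3.90 ± 0.26 in WT (9.82e-14) and Fzd2 at -1.63 ± 0.15 in Null (2.20e-10) and -1.23 ± 0.15 in WT (1.59e-07). Ror2, a receptor of Wnt5a, held 44 pooled counts in Null at 24h against 3 at 0h (2.14e-04) and rose by 2.095 ± 0.60 in WT (0.0117). Of 11 tested target and feedback genes 9 rose in Null and 8 in WT, and 0 fell in either.

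Patterns most like those of the 7 genes over the 8 EpiSC libraries were looked up among 5863 genes of at least 20 CPM, as Pearson's r of log2 CPM. They describe libraries that fall into 0h and 24h groups. Wnt5b came closest to the streak homeobox gene Evx1 (r = 0.991), Wnt6 to Ppic (0.996) and the cadherin gene Cdh11 (0.995), and Rspo3 to Rab34 (0.993). Wnt3 had its closest match at r = 0.952, with Upf2, and Wnt4 came closest to Mogs (0.989). Among the members, Wnt4 had a negative r with each of the other 6, between -0.84 with Rspo3 and -0.23 with Wnt3.

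In tailbuds the Triple embryos differed from WT embryos most in Wnt5b and Rspo3. EdgeR called 0 of 5 tested members higher and 2 lower, where 1.62% of all genes were called higher and 1.28% lower. Wnt5b, Rspo3, Wnt5a and Wnt3a were lower, and Wnt6 higher, in all 3 Triple libraries than in any WT library. How many of all genes were separated in this way was not counted, so it only describes these libraries. All 5 had an unadjusted p under 0.05, as did 12.0% of all genes, and DESeq2 called 1, Wnt5b. The median log2 difference of the 5 was -1.01, against 0.00 over all genes. The filter asked for 20.1 CPM in 3 tailbud libraries, and 4 of the 5 passed it only through WT or Cdx1-4 libraries, while Wnt6 was over it in all 9.

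Wnt5b held 3, 4 and 9 counts in the Triple libraries, against 29, 25 and 29 in the WT libraries, given as green_1, blue_1 and blue_2 of the column names. In CPM these were 8.17, 9.77 and 15.6 in Triple and 35.4, 65.9 and 73.3 in WT. The highest Triple library was thus below the lowest WT library. The log2 difference was -2.17 ± 0.39 (SE, n = 3 each; edgeR adjusted p = 1.75e-04), and it passed under every alternative run, up to an adjusted p of 0.00299.

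Rspo3 held 7, 3 and 12 counts in the Triple libraries, against 25, 19 and 19 in the WT libraries. Its level was 15.7 ± 7.33 CPM in Triple and 42.9 ± 10.7 CPM in WT (SD, n = 3 each), with no overlap between the groups. The log2 difference of -1.30 ± 0.36 passed (edgeR adjusted p = 0.0281). It did not pass with DESeq2 (0.187), among the blue libraries alone (0.0502), or without Triple green_1 (0.0545), Triple blue_1 (0.231), WT blue_1 (0.114) or WT blue_2 (0.0974), within a range of 0.0156 to 0.231.

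Wnt5a and Wnt3a were lower in each Triple library without passing over all genes. Wnt5a held 5, 8 and 15 counts in Triple, against 30, 14 and 22 in WT, or 19.7 ± 6.20 CPM in Triple and 43.0 ± 10.9 CPM in WT. Its log2 difference was -1.01 ± 0.35 (edgeR adjusted p = 0.119). It passed when the colour in the column names was a term of the fit (0.0419), a setting added after the data were seen, and its adjusted p ranged from 0.0419 to 0.558. Wnt3a held 2, 9 and 6 counts in Triple, against 19, 11 and 10 in WT, or 12.6 ± 8.48 CPM in Triple and 25.8 ± 2.94 CPM in WT. Triple blue_1, at 21.98 CPM, lay just under the lowest WT library, at 23.2 CPM, and the log2 difference was -0.99 ± 0.46 (edgeR adjusted p = 0.355).

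Wnt6 stood apart from the other ligands in Triple tailbuds. It held 31, 33 and 42 counts in Triple, against 44, 17 and 26 in WT, which at the depth of these libraries is 84.4, 80.6 and 72.8 CPM in Triple and 53.7, 44.8 and 65.7 CPM in WT. Every Triple library was higher, by a log2 difference of 0.52 ± 0.23 that did not pass (edgeR adjusted p = 0.324). Wnt4 was below the filter, with 7, 5 and 7 counts in Triple and 18, 8 and 6 in WT, a ratio of 0.699 with an exact interval of 0.374 to 1.27. Its levels of 12.1 to 19.1 CPM in Triple and 15.2 to 21.98 CPM in WT overlapped. Wnt3 held 0 counts in the 3 Triple libraries and 0 to 1 in the WT libraries, and Wnt8a 0 to 1 in Triple and 0 to 2 in WT, too few to compare.

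**Figure D3:**
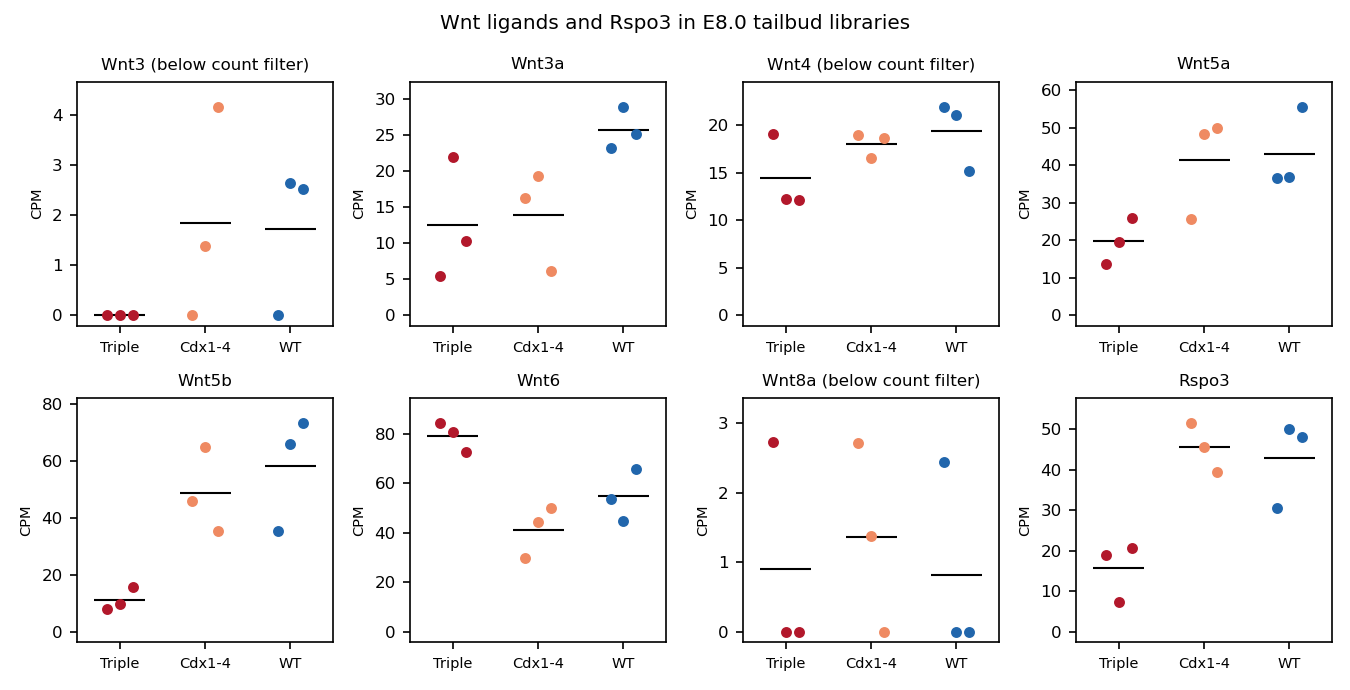
Level in CPM (y axis, own scale per panel) of the 8 listed genes in the 9 tailbud libraries. Points are libraries and bars are means of 3; Wnt5b and Rspo3 are lowest in Triple, at 11.2 and 15.7 CPM on average, and Wnt6 is highest there at 79.3 CPM.

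Cell type markers moved with the Triple group. Of 5 tested streak and tailbud markers 5 were called lower in Triple against WT, among them Cdx4 and Cdx2 of the Cdx family. Cdx4 was also the 1 of 5 called lower in Cdx1-4 against WT, with 1 pooled count in Cdx1-4 and 68 in WT. The part of the alleles behind the groups in these calls was not tested. The 7 listed markers summed to 278 to 332 CPM in Triple and 604 to 750 CPM in WT, with Cdx4 at 0 in Triple. Presomitic markers summed to 61.0 to 89.8 CPM in Triple and 229.9 to 243 CPM in WT, with 2 of 2 tested lower and Msgn1 at 0 in Triple. Formed somite markers summed to 883 to 1203 CPM in Triple and 366 to 381 CPM in WT, with 3 of 4 tested higher and 0 lower. Sox10, the 1 neural crest marker listed of 3, stood at 101 to 114 CPM in Triple and 0 to 4.88 CPM in WT. Surface ectoderm markers summed to 1184 to 1353 CPM in Triple and 773 to 824 CPM in WT, with 2 of 3 tested higher, 0 lower and Grhl2 at 0 in both groups. The 2 were the keratin genes Krt18 and Krt8. Epcam was not called, at 0.16 ± 0.35 on the log2 scale (edgeR adjusted p = 0.943), and Tfap2a, Grhl2 and Grhl3 were not tested. The decidual gene Prl8a2 stood at 22.5 to 31.7 CPM in Triple and 0 to 1.22 CPM in WT. The 3 neural tube markers, of which 0 were tested, summed to 27.7 to 39.1 CPM in Triple and 3.66 to 15.8 CPM in WT. Other lists held genes that were lower in Triple: Tbx4, 1 of 1 tested allantois and extraembryonic markers, at -2.66 ± 0.64 on the log2 scale (edgeR adjusted p = 0.00790), and Osr1, 1 of 4 tested intermediate and lateral mesoderm markers, at -0.88 ± 0.24 (0.0251). Thy1, 1 of 3 tested fibroblast markers, held 3 pooled counts in Triple and 37 in WT (0.000762). The part of these tissues in the ligand differences was not tested.

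Cdx1-4 tailbuds were compared with WT tailbuds, and edgeR called 0 of 5 members, with 0 at an unadjusted p under 0.05 and 0 called by DESeq2. Over all genes 0.0333% were called higher, 0.1% lower and 7.63% had an unadjusted p under 0.05. Wnt5b was at 48.8 ± 15.0 CPM in Cdx1-4 and 58.2 ± 20.1 CPM in WT, a log2 difference of -0.10 ± 0.27 with a 95% interval of -0.64 to 0.43. Rspo3 was at 51.5, 45.6 and 39.5 CPM in Cdx1-4 and 30.5, 50.1 and 48.0 CPM in WT, a difference of 0.19 ± 0.27 with an interval of -0.35 to 0.74. Wnt5a was at 41.3 ± 13.5 CPM in Cdx1-4 and 43.0 ± 10.9 CPM in WT. Wnt3a was the one member whose libraries did not overlap, a separation that was not counted over all genes. It held 12, 14 and 3 counts in Cdx1-4 and 19, 11 and 10 in WT. Its level was 14.0 ± 6.86 CPM in Cdx1-4 and 25.8 ± 2.94 CPM in WT (log2 difference -0.76 ± 0.41, edgeR adjusted p = 0.686). Wnt6 was at 41.3 ± 10.4 CPM in Cdx1-4 and 54.8 ± 10.5 CPM in WT, a difference of -0.43 ± 0.25 (edgeR adjusted p = 0.708).

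Triple tailbuds were then set against Cdx1-4 tailbuds, which share the low Cdx4 counts. EdgeR called 1 of 5 members higher and 2 lower, where 1.22% of all genes were called higher and 0.8% lower. Wnt5b was at 11.2 ± 3.92 CPM in Triple and 48.8 ± 15.0 CPM in Cdx1-4, and its difference of -2.07 ± 0.38 on the log2 scale (SE, edgeR adjusted p = 4.22e-04) passed under every alternative run. Rspo3 held 7, 3 and 12 counts in Triple and 38, 33 and 19 in Cdx1-4, a difference of -1.50 ± 0.34 (edgeR adjusted p = 0.00546). Wnt6 was at 79.3 ± 5.88 CPM in Triple and 41.3 ± 10.4 CPM in Cdx1-4, a difference of 0.96 ± 0.24 (edgeR adjusted p = 0.0137). For each of these genes the libraries of the groups did not overlap, a separation that was not counted over all genes. The Rspo3 call was lost with DESeq2 (adjusted p = 0.0973), without Triple blue_1 (0.107) and among the blue libraries (0.108), within a range of 0.00200 to 0.108. The Wnt6 call was lost with DESeq2 (adjusted p = 0.206), without Cdx1-4 green_1 (0.162), Triple green_1 (0.0722) or Triple blue_1 (0.0657) and among the blue libraries (0.372), within a range of 0.0116 to 0.372. Wnt5a differed by -0.97 ± 0.34 (edgeR adjusted p = 0.161) and Wnt3a by -0.23 ± 0.49 (0.935), with an interval of -1.22 to 0.75 for Wnt3a.

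By gene, the order of the 3 tailbud groups was not the same. For Wnt5b and Rspo3, Triple lay below Cdx1-4 and WT, which overlapped. For Wnt5a, Triple lay below WT, and Cdx1-4 overlapped with both, since 1 Cdx1-4 library, at 25.8 CPM of Wnt5a, lay within the Triple range of 13.6 to 26.0 CPM. For Wnt3a, Triple and Cdx1-4 overlapped and WT lay above both. For Wnt6, Triple lay above WT and Cdx1-4, which overlapped.

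The 7 listed Wnt ligands summed to 133, 144 and 137 CPM in the Triple libraries, 139.6, 196 and 164 CPM in the Cdx1-4 libraries and 173, 200.4 and 237 CPM in the WT libraries, given as green_1, blue_1 and blue_2. Each Triple sum was below each WT sum, and the Triple and Cdx1-4 sums overlapped. Wnt6 gave 84.4, 80.6 and 72.8 CPM of the Triple sums.

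Other pathway genes were counted in Triple against WT tailbuds too. Of the other ligands and of the R-spondin receptors 0 were tested. Of 8 tested secretion and handling genes 0 were called by edgeR. Of 7 receptors, Fzd2 was higher, by 0.96 ± 0.15 (SE, log2, edgeR adjusted p = 1.95e-05), and Ptk7, a receptor of the polarity branch, lower, at -0.68 ± 0.19 (0.0322). Of 10 target and feedback genes 4 were lower and 1 higher. Tbx6, a T-box gene of presomitic mesoderm, was at -1.68 ± 0.21 (1.06e-07), Cdx1 at -1.27 ± 0.22 (1.27e-04), and Dkk1, a secreted Wnt antagonist, at 1.02 ± 0.28 (0.0254). Cdx1 and Cdx2 were among the 4 lower, and Cdx1 was also lower in Cdx1-4 against WT, at -1.60 ± 0.21 (edgeR adjusted p = 5.11e-06). The part of the alleles behind the groups in these calls was not tested.

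Over the 9 tailbud libraries the pattern of Wnt5b was most like those of Hoxd9 (r = 0.98), Hoxd4 (0.97) and Hoxb9 (0.97), and that of Rspo3 most like Hoxd4 (0.97). Wnt6 was most like Hspa5 (0.94), and Wnt5a had its closest match, Fbxw2, at 0.93. Between members, r was 0.90 for Wnt5b and Rspo3 and 0.85 for Wnt5b and Wnt5a. Wnt6 had a negative r with each of the other 4, from -0.77 with Rspo3 to -0.27 with Wnt3a. These values were computed among 5596 genes of at least 20 CPM and describe libraries that fall into 3 groups.

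**Figure D4:**
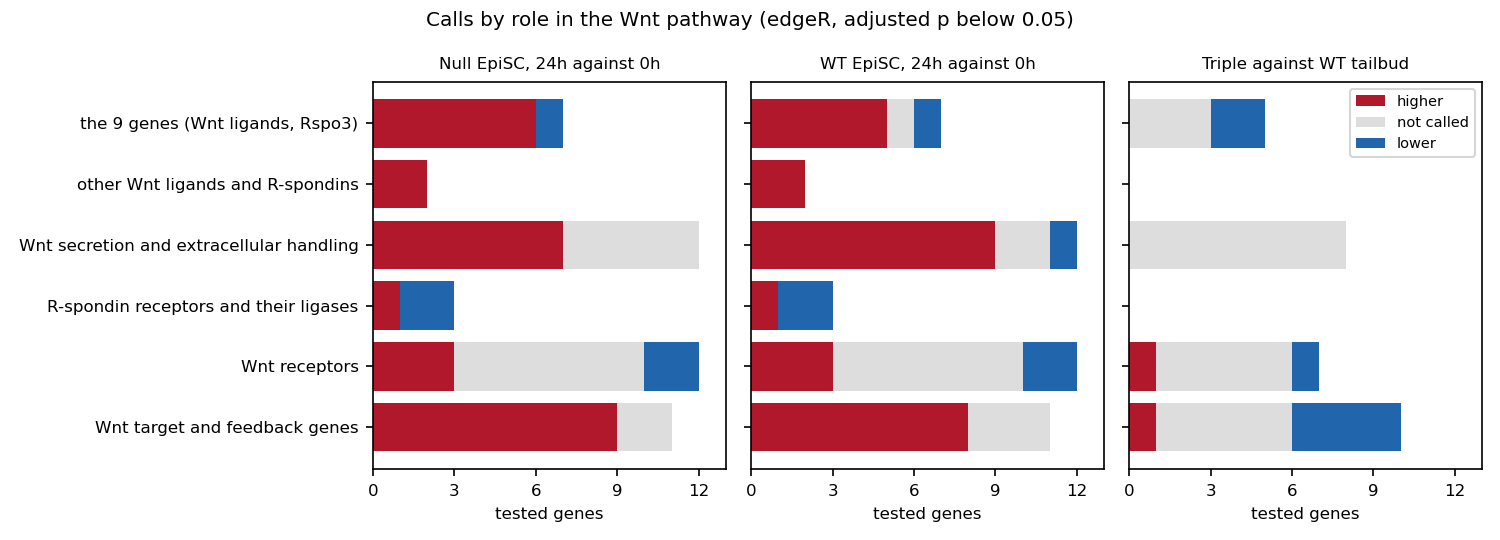
Number of tested genes (x axis) called higher, not called and called lower by edgeR for the 9 genes and for 5 lists of other Wnt pathway genes, in 3 comparisons. Higher calls prevail among ligands and targets in EpiSCs at 24h, where 9 of 11 targets rose in Null and 8 in WT, and lower calls among the 9 genes and the targets in Triple tailbuds.

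WT EpiSCs at 24h and WT tailbuds can be set side by side without a test, since the tables were normalised separately. Wnt6 stood at 51.7 ± 4.61 CPM in the EpiSCs and 54.8 ± 10.5 CPM in the tailbuds, and Wnt5a at 33.9 ± 3.74 CPM in the EpiSCs and 43.0 ± 10.9 CPM in the tailbuds. Wnt5b stood at 18.6 ± 2.79 CPM in the EpiSCs and 58.2 ± 20.1 CPM in the tailbuds. Wnt3a, at 6.09 ± 3.20 CPM in the EpiSCs and 25.8 ± 2.94 CPM in the tailbuds, and Wnt4, at 4.73 ± 2.17 CPM in the EpiSCs and 19.4 ± 3.71 CPM in the tailbuds, had lower values in the EpiSCs. Wnt3 stood at 8.18 ± 6.15 CPM in the EpiSCs, where the libraries were split, and 1.72 ± 1.49 CPM in the tailbuds.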

How the data were processed

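The deposited tables hold raw counts of CEL-seq tags per gene and library, mapped to mm10 per the labels. The counter and its settings are not given in the sources used here. Spike-in entries, 8 per table with 2 counts in EpiSCs and 1 in tailbuds, were left out. The 9 genes were found by symbol, and the genes and pathway and marker lists were chosen with earlier results of these data known. All 9 are named, with up to 3 called genes per pathway list. Tailbud columns name a group, a colour and a number, not a sample title; 1 column spelled Cd4 was read as Cdx.

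Each table was fitted alone with edgeR 4.0.16 (quasi-likelihood, robust, TMM scaling, filterByExpr) in R 4.3.3, 1 mean per group. A gene was called at a Benjamini-Hochberg adjusted p under 0.05 over all tested genes. CPM use TMM-scaled totals, SEs come from the F statistic, and 95% intervals of log2 differences are not adjusted. Ratios of pooled counts carry exact 95% intervals. DESeq2 1.42.0 and other settings served as alternatives. The test was also run on simulated counts with a common spread for all genes, which does not bear on the calls of scarce genes. Replicate numbers were not used to pair libraries in the main fit. Promoters and gene positions came from RefSeq GRCm38.p6, the assembly called mm10. Deposited region lists were not used here.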

Additional observations from a re-analysis of the deposited data

How the results depend on the processing

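Of 520 values of single genes under other settings, 30 fell on the other side of the threshold, and 23, in 9 results called under neither setting, changed sign. Of 87 counts of called members 13 moved by over 1.5 times. For Triple against WT tailbuds, the count of 2 went to 1 with DESeq2 and among the blue libraries, and was 1 to 2 with each library left out. For Triple against Cdx1-4 tailbuds, the count of 3 went to 1 with DESeq2 and among the blue libraries, and was 1 to 3 with each library left out. For Null against WT EpiSCs at 24h, the count of 0 went to 1, Wnt3, without the filter and with only the compared groups, and was 0 to 1 with each library left out. Same-numbered EpiSC libraries deviated together with r from 0.01 to 0.09. With 2 libraries per group these values cannot show whether the numbers mark pairs. With the replicate number as a block, the count for Null against WT EpiSCs at 24h was 1. The colour as a term, and colour and number as a replicate block, were added after seeing the data, and called Wnt5a in Triple against WT tailbuds (adjusted p = 0.0419 and 0.0479). The cause of these shifts was not tested. Depth limits Wnt8a and Wnt11 in EpiSCs and Wnt3, Wnt4 and Wnt8a in tailbuds, which were below the filter. A lone library left in a group was assumed to vary like the other groups.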

Other observations

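Other ligands of the family were counted too. Wnt2 held 27 and 25 counts in Null EpiSCs at 24h, against 2 and 2 at 0h, and 56 and 18 in WT EpiSCs at 24h, against 2 and 0 at 0h. Wnt2b held 7 pooled counts in Null at 24h, against 1 at 0h, and 12 in WT at 24h, against 0 at 0h. Wnt7b held 4 pooled counts in Null at 24h, against 24 at 0h, and 13 in WT at 24h, against 16 at 0h, and was below the filter. In tailbuds none of these passed the filter, and Wnt2 held 8 pooled counts in Triple, 5 in Cdx1-4 and 12 in WT.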
